A study of Rattus norvegicus with 30 samples.

Results

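Hearts of male Wistar Han rats (strain label Crl:WI(Han)) were compared 24 h after a single dose of isoproterenol, a synthetic catecholamine that stimulates beta-adrenergic receptors, or after vehicle alone. The comparison holds the arrays titled as 24 h samples, 4 with isoproterenol and 3 with vehicle, which are 7 of the 30 arrays of the series; every probe set is included. In the titles the amount is 0.5 in mg/kg/ml, while the design text has 0.5 mg, and which of them holds per kilogram is open to doubt. The sources name neither an age, a route nor a region of the heart. Arrays are titled as biological replicates without saying that 1 animal gave 1 array. The p-values of fitted changes therefore rest on the spread between samples within groups, taken over all 30 arrays. That spread may be technical. Total RNA was labelled and hybridised to RAT230_2 arrays, which have 1 colour and read each gene with 1 or more probe sets. All levels below are log2(intensity + 16) after quantile normalization. All changes are isoproterenol minus vehicle on that scale, followed by the standard error of the fitted change.

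Isoproterenol raises heart rate, contractile force and oxygen demand through beta-adrenergic receptors, and large doses kill scattered groups of cardiomyocytes, mostly beneath the endocardium. Dead muscle is cleared by monocytes and macrophages recruited from the blood. A provisional matrix that includes fibronectin, osteopontin, periostin and tenascin forms before fibrillar collagen is added. The healthy adult ventricle draws most of its ATP from mitochondrial oxidation of fatty acids, and injured or overloaded muscle is known for reduced oxidation and for renewed expression of fetal genes. Whole tissue was measured, so fewer cells of a type and less RNA per cell cannot be told apart in any value below.

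Of 23582 probe sets tested, 3179 (13.5%) passed an adjusted p of 0.05 in limma's moderated test, with 1782 higher (7.56%) and 1397 lower (5.92%) after isoproterenol. Counted as genes, 1249 of 12235 were higher (10.2%) and 901 were lower (7.36%). These shares are the background against which each gene group is read below. The median change of all genes was -0.01. Apart from any test, 1591 genes (13%) were higher and 1552 (12.7%) lower on every isoproterenol array than on every vehicle array.

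Isoproterenol replicate 3 stood apart from its group. Its correlation with the other isoproterenol arrays lay between 0.941 and 0.966, and its correlation with the vehicle arrays between 0.961 and 0.962. On the first principal component of the 7 arrays, which held 52.5% of the variance, the vehicle arrays lay between -44.72 and -37.32, replicate 3 at -8.54 and isoproterenol replicates 1, 2 and 4 at 33.98, 61.88 and 37.42. Among probe sets called without it, replicate 3 stood at a median of 38.1% of the rise (2368 probe sets) and 33.5% of the fall (2060 probe sets) fitted from the remaining arrays. The matching values for replicate 2 were 138% of the rise and 152% of the fall, so replicate 2 stood beyond its group and replicate 3 short of it. The fit for replicate 2 includes replicate 3, which lowers the level it is set against. Vehicle replicates 1 to 3, each left out in turn, stood at 18.8%, 6.24% and 5.07% of the rise. Their values for the fall were 16.6%, 22.3% and 11.1%. Replicate 3 was the isoproterenol array nearest to vehicle for 1874 of 2150 called genes (87.2%). Its median intensity before normalization was 35.2, against 57.6, 70.1 and 70.3 for the remaining isoproterenol arrays and 49.3, 29.9 and 29.7 for the vehicle arrays, and its part in the result was not tested. Without replicate 3, 1688 of 12223 genes were higher (13.8%) and 1281 lower (10.5%). Of the 3179 probe sets called with all arrays, 3123 were also called without it. Leaving out replicate 2 reduced the called probe sets from 3179 to 1604, and leaving out vehicle replicate 2, vehicle replicate 3 or isoproterenol replicate 4 reduced them to 2116, 1887 and 2119.

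**Figure D1:**
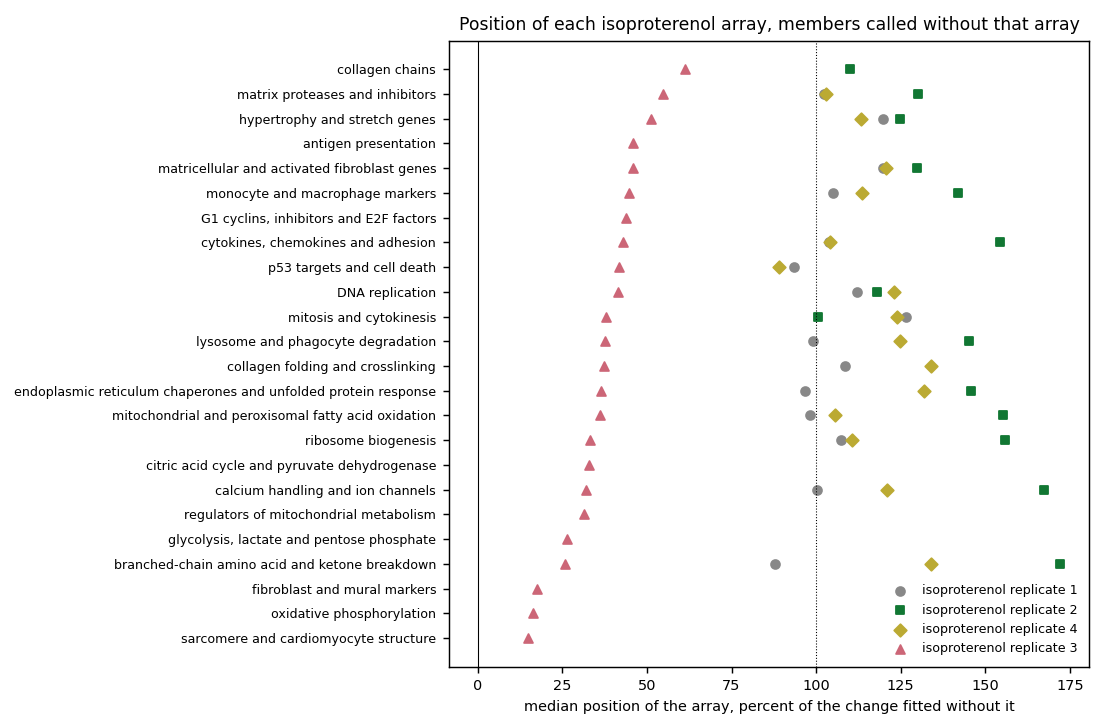
Median position of each isoproterenol array for the members of each list, as a percentage of the isoproterenol effect fitted without that array (0, vehicle; dotted line, the level of the remaining isoproterenol arrays), shown where at least 5 members were called. Replicate 3 lay between 14.9% for sarcomere genes and 61.3% for collagen chains, while replicate 2 lay between 100.5% for mitosis genes and 172% for branched-chain amino acid genes.

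Array brightness and array order moved with treatment. The array numbers in the labels run from 16 to 18 for vehicle and from 53 to 57 for isoproterenol, which means that treatment and the order of the arrays cannot be told apart. The 3' to 5' difference of the beta-actin control probe sets, which widens as RNA is degraded, was 1.06 ± 0.211 (SD, n = 4) on the isoproterenol arrays and 1.69 ± 0.232 (SD, n = 3) on the vehicle arrays. The groups did not overlap (exact two-sided permutation p = 0.0571, the smallest that 4 against 3 arrays allow). The same difference for GAPDH was 0.415 ± 0.0733 (SD, n = 4) and 0.348 ± 0.0273 (SD, n = 3; exact two-sided permutation p = 0.229). The part of RNA integrity in the results below was not tested. Of the 44 called genes named by rule that have several probe sets, 8 passed on all of them and 36 on some, and none had a call in the opposite direction. Among the genes described below, Bdh1, Ccne2, Col12a1, Col15a1, Gmnn, Htra3, Kcnip2, Ndufa9, Pdk2, Plau, Rxrg, Slc2a4, Top2a and Zap70 passed on 1 of 2 probe sets and Kcnj11 on 2 of 3. Without any normalization between arrays the median change of all probe sets was 0.47, with 3078 higher and 17 lower. Median centring in place of quantile normalization left 1681 probe sets higher and 778 lower, so that 68.4% of calls were higher in place of 56.1%.

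**Figure D2:**
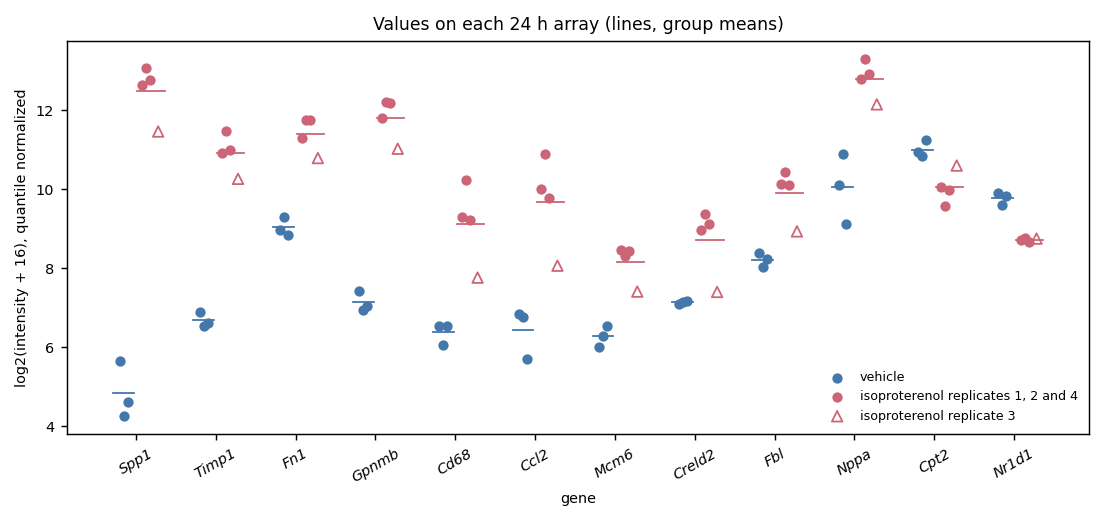
Log2(intensity + 16) of 12 genes on each 24 h array, with vehicle in blue, isoproterenol in red, isoproterenol replicate 3 as an open triangle and lines at group means. Spp1 lay between 4.26 and 5.65 on vehicle arrays and between 11.46 and 13.07 on isoproterenol arrays, replicate 3 lay nearest to vehicle for all but Nr1d1 among the genes drawn, and no group overlapped.

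The injury matrix was led by Spp1, which encodes osteopontin, a secreted matrix and cytokine-like protein of wounds. Which cells the Spp1 signal came from was not resolved. Spp1 read 5.65, 4.26 and 4.62 on the vehicle arrays and 12.65, 13.07, 11.46 and 12.78 on isoproterenol replicates 1 to 4. All 4 isoproterenol arrays were far above vehicle, replicate 3 included, and the change was 7.65 ± 0.57 (adjusted p = 6.11e-10), the largest rise of any gene. The vehicle mean of 4.84 lay below 5.31, the level under which a probe set is called dim here, and a change from a dim level is understated by the pseudocount. Postn, which encodes periostin of activated fibroblasts, read 6.33, 7.88 and 6.49 on vehicle and 10.75, 10.62, 9.80 and 11.12 on isoproterenol, a change of 3.68 ± 0.57 (adjusted p = 7.59e-05). Fn1, fibronectin, rose from 8.98, 9.30 and 8.85 to 11.30, 11.76, 10.79 and 11.76 (change 2.36 ± 0.36, adjusted p = 7.29e-05). For both genes the groups were well apart, with replicate 3 the lowest isoproterenol array. Tnc, tenascin-C, changed by 2.36 ± 0.67 (adjusted p = 0.0172) from a dim vehicle level, and lost its call without vehicle replicate 1 (adjusted p = 0.0615), without vehicle replicate 2 (0.0589) or without isoproterenol replicate 2 (0.0516). With a pseudocount of 64 its change was 1.26 (adjusted p = 0.0869). Of 30 measured matricellular and activated fibroblast genes, 14 were higher and 0 lower, with a median change of 1.11, and the count ran from 10 to 18 when single arrays were left out.

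Of the fibrillar collagens reported here, Col1a1 and Col3a1 did not pass at 24 h and Col5a2 did. Col3a1 read 12.06, 12.50 and 12.28 on vehicle and 12.48, 11.92, 12.64 and 12.70 on isoproterenol, with overlapping groups (change 0.15 ± 0.17, adjusted p = 0.644). Col1a1 read 10.12, 10.01 and 9.77 against 10.71, 10.53, 10.52 and 10.88. Its groups did not overlap, yet the change of 0.69 ± 0.35 missed the threshold (adjusted p = 0.206), while another of its 2 probe sets passed. It passed when only the 7 arrays were fitted (adjusted p = 0.0195), with array weights (0.0219) and with no normalization (0.0318). Of 19 collagen chains, 6 were higher and 2 lower, with a median of 0.39. Col5a2, which helps to start fibrils, read 9.75, 10.38 and 9.86 against 11.19, 10.78, 10.75 and 11.47 (change 1.05 ± 0.31, adjusted p = 0.0214; 1 of 2 probe sets). Its groups did not overlap, and its call was lost without vehicle replicate 1 (adjusted p = 0.0963) or 3 (0.0865), or without isoproterenol replicate 1 (0.054) or 4 (0.0818). Larger changes stood in chains of other classes: Col8a1, a short-chain vascular collagen, changed by 1.88 ± 0.48 (adjusted p = 0.00833), Col12a1, which sits on the surface of fibrils, by 1.48 ± 0.41 (0.0136), and Col18a1, a basement membrane chain, by 1.20 ± 0.31 (0.00859). Each of these 3 calls was lost when 1 array was left out: Col8a1 without vehicle replicate 3 (adjusted p = 0.066), Col18a1 without vehicle replicate 1 (0.0562), and Col12a1 without vehicle replicate 1 (0.0559) or isoproterenol replicate 2 (0.0636). Col4a5, a basement membrane chain, fell by 1.04 ± 0.25 (adjusted p = 0.00586; 0.0797 without vehicle replicate 2 and 0.054 with only the 7 arrays fitted), and Col15a1 fell by 0.66 ± 0.14 (adjusted p = 0.00144; 0.105 with arrays centred on their medians). The count of higher collagen chains dropped to 2 without vehicle replicate 1 and to 3 without vehicle replicate 3.

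Enzymes that modify and fold collagen were higher in 7 of 20 cases and lower in 0, with a median of 0.63. Plod2, a lysyl hydroxylase that prepares collagen for crosslinking, changed by 1.34 ± 0.36 (adjusted p = 0.011; 0.0859 without vehicle replicate 3). P4ha1, a prolyl hydroxylase subunit needed for a stable collagen helix, changed by 1.10 ± 0.28 (adjusted p = 0.00818; 0.053 without isoproterenol replicate 2). The count of higher enzymes was 4 without vehicle replicate 3 and 4 without isoproterenol replicate 2.

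Timp1, the secreted inhibitor of matrix metalloproteinases, read 6.89, 6.53 and 6.62 on vehicle and 10.93, 11.49, 10.26 and 11.00 on isoproterenol (change 4.24 ± 0.54, adjusted p = 6.92e-06). All isoproterenol arrays were high and close together. Mmp12, the macrophage elastase, read 4.45, 5.33 and 5.29 on vehicle, which is dim, and 7.43, 8.31, 7.24 and 7.97 on isoproterenol (change 2.72 ± 0.38, adjusted p = 2.34e-05). Plau, the urokinase plasminogen activator, changed by 2.09 ± 0.37 (adjusted p = 0.000329), and Adam8, a metalloprotease of leukocytes, by 1.73 ± 0.34 (0.00106). Both rose from dim vehicle levels. In the other direction Htra3, a secreted serine protease, read 10.46, 10.49 and 10.44 on vehicle and 8.48, 7.72, 9.49 and 8.15 on isoproterenol (change -2.0 ± 0.24, adjusted p = 2.86e-06). Replicate 3 was again nearest to vehicle, and the groups did not overlap. Of 25 proteases and inhibitors, 6 were higher and 4 lower, and the lower count was 1 without isoproterenol replicate 2 and 2 without vehicle replicate 2 or 3.

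Of the lists examined, markers of monocytes and macrophages had the largest share called. Of 42 measured, 33 were higher and 0 lower, with a median change of 1.78, and the groups did not overlap for 33. The count was 33 without isoproterenol replicate 3 and at least 29 with any other array left out. The summed intensity of the 43 markers on the array ran from 4361 to 6623 on vehicle and from 13208 to 35177 on isoproterenol, with replicate 3 at 13208, the lowest of its group and still above the highest vehicle array. No marker was below the dim level on all 7 arrays.

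Cd68, a lysosomal glycoprotein that marks macrophages, read 6.54, 6.07 and 6.55 on vehicle and 9.30, 10.22, 7.76 and 9.21 on isoproterenol (change 2.74 ± 0.52, adjusted p = 0.00065). Itgb2, the beta-2 integrin that leukocytes use to leave the blood, read 6.65, 5.75 and 6.0 against 8.35, 9.19, 8.07 and 8.72 (change 2.45 ± 0.31, adjusted p = 6.92e-06). Ptprc, the pan-leukocyte antigen CD45, read 6.13, 6.16 and 6.10 against 8.58, 8.89, 7.29 and 8.85 (change 2.27 ± 0.34, adjusted p = 6.2e-05). In all 3 the isoproterenol arrays were above vehicle, replicate 2 was highest and replicate 3 lowest. Gpnmb, a glycoprotein of lipid-laden and phagocytic macrophages, read 7.44, 6.94 and 7.04 on vehicle and 11.80, 12.21, 11.03 and 12.18 on isoproterenol (change 4.67 ± 0.49, adjusted p = 5.25e-07). Lgals3, galectin-3, read 8.10, 7.57 and 7.69 against 11.55, 11.98, 10.86 and 11.71 (change 3.74 ± 0.41, adjusted p = 8.71e-07). For these genes of phagocytic macrophages replicate 3 lay within 1 log2 unit of the next array. Clec4a3, a myeloid C-type lectin, was further apart there, with 9.08, 9.16 and 9.16 on replicates 1, 2 and 4 but 7.16 on replicate 3, against 6.32, 5.79 and 5.64 on vehicle (change 2.72 ± 0.46, adjusted p = 0.000183). S100a4, a calcium-binding protein of motile myeloid and mesenchymal cells, changed by 3.30 ± 0.38 (adjusted p = 2.06e-06) and the inhibitory leukocyte receptor Lilrb4 by 2.93 ± 0.40 (1.49e-05), the latter from a dim level.

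Neutrophil, lymphocyte and mast cell markers gave 3 calls in all. Of 7 measured neutrophil markers, 2 were higher (28.6%, against 10.2% of all genes), and the summed intensity of the list ran from 224 to 453 on isoproterenol and from 176 to 235 on vehicle, with overlap at replicate 3 (224). Alox5ap, which serves leukotriene synthesis and is also made by macrophages, changed by 1.44 ± 0.26 (adjusted p = 0.000431), and Il1r2, the decoy receptor of interleukin-1, by 1.08 ± 0.30 (0.0144). Il1r2 lost its call without vehicle replicate 3 (adjusted p = 0.0559), isoproterenol replicate 1 (0.0507) or isoproterenol replicate 2 (0.066), and with arrays centred on their medians (0.0565). S100a8 read 4.71, 4.15 and 5.46 on vehicle and 5.86, 6.0, 4.95 and 5.10 on isoproterenol (adjusted p = 0.15). S100a9 read 6.0, 4.80 and 5.55 against 6.44, 6.13, 4.91 and 5.81 (adjusted p = 0.581). The groups overlapped for both of these abundant neutrophil proteins. Of 10 neutrophil markers on the array, 3 were below the dim level on all 7 arrays. Of 17 lymphocyte markers, 0 were higher and 1 was lower, the T cell kinase Zap70 (change -0.84 ± 0.22, adjusted p = 0.00962; 0.0576 without vehicle replicate 1 and 0.0511 without isoproterenol replicate 2). None of 7 mast cell markers passed. The medians were 0.38 for neutrophil, -0.01 for lymphocyte and -0.25 for mast cell markers.

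Among the secreted signals, the chemokines that draw CCR2-bearing monocytes stood highest. Ccl2 read 6.84, 6.77 and 5.70 on vehicle and 10.01, 10.88, 8.07 and 9.79 on isoproterenol (change 3.25 ± 0.43, adjusted p = 1.04e-05). Ccl7 changed by 2.66 ± 0.40 (adjusted p = 6.2e-05) and Ccl9, a chemokine of rodent myeloid cells, by 2.00 ± 0.41 (0.0015), both from dim levels. For Ccl2 and Ccl7 replicate 3 was the lowest isoproterenol array, while for Ccl9 it lay among them at 6.45 beside 6.19, 7.23 and 6.27. Il1b, the inflammasome product interleukin-1 beta, read 4.27, 4.36 and 4.15 on vehicle, all dim, and 5.86, 6.25, 5.34 and 5.82 on isoproterenol (change 1.56 ± 0.30, adjusted p = 0.000719). Il18, its family member, changed by 1.62 ± 0.34 (adjusted p = 0.0017). Of 40 cytokines, chemokines and adhesion molecules, 6 were higher and 0 lower with a median of 0.19, a share of the list close to the 10.2% of all genes.

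Genes of antigen presentation and of lysosomal digestion were higher in part. Of 18 antigen presentation genes, 5 were higher and 1 lower, and 8 were higher without replicate 3. RT1-DMa, which loads peptide onto class II molecules, changed by 1.75 ± 0.36 (adjusted p = 0.00135) and the class II chain RT1-Da by 1.41 ± 0.32 (0.00319). Class II genes of the rat are closely related, so probe sets can share signal between them. Cd1d1, which presents lipids to natural killer T cells, read 8.58, 8.63 and 8.69 on vehicle and 6.87, 6.68, 5.47 and 5.68 on isoproterenol (change -2.46 ± 0.53, adjusted p = 0.00193), the largest fall of any gene. Here replicate 3 was the array farthest from vehicle. Of 30 lysosomal genes, 13 were higher and 1 lower with a median of 0.33, led by the cathepsins Ctsz (2.17 ± 0.40, adjusted p = 0.000471) and Ctss (1.47 ± 0.34, 0.00409). The count fell to 8 without vehicle replicate 2 and to 7 without isoproterenol replicate 2.

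Complement and interferon genes did not show a shared rise. Of 16 complement genes, 1 was higher and 2 were lower. C5ar1, the receptor that draws myeloid cells to C5a, changed by 1.54 ± 0.32 (adjusted p = 0.00165), and Serping1, the inhibitor of C1, by -1.07 ± 0.18 (0.000196). Of 22 interferon-response genes, 0 were higher and 1 was lower, Usp18 (-1.0 ± 0.34, adjusted p = 0.0485), whose adjusted p reached 0.205 without vehicle replicate 3, 0.146 without vehicle replicate 2, 0.14 without isoproterenol replicate 2 and 0.129 without isoproterenol replicate 4.

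Many genes of DNA replication and of mitosis were higher. Of 47 measured replication genes, 26 were higher and 0 lower (median 0.79), and 33 were higher without replicate 3. Of 64 mitosis and cytokinesis genes, 26 were higher and 0 lower (median 0.78). For mitosis genes the number higher rose to 41 without isoproterenol replicate 3 and dropped to 17 without either vehicle replicate 3 or isoproterenol replicate 1. Replication genes are switched on at the start of S phase by E2F factors, and many mitotic genes carry a cell cycle homology region (CHR) read late in the cycle. The promoters of Mcm6 and Hells, 2 replication genes that rose, and of Cks2 and Mki67, 2 mitotic genes that rose, are shown for their matches to these letters. They are the bases just before the RefSeq start site in build GRCr8, written 5′ to 3′ on the strand of the gene, with capitals marking an E2F site (TTTCCCGC or TTTGGCGC) or a CHR (TTTGAA) on either strand. Mcm6 lies at chr13:42404353-42404502 on the minus strand, Hells at chr1:246114029-246114128 on the plus strand, Cks2 at chr17:13727520-13727619 on the minus strand and Mki67 at chr1:199952594-199952723 on the minus strand.
Mcm6: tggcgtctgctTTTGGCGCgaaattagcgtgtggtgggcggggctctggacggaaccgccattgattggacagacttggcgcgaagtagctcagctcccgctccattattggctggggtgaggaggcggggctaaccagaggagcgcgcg
Hells: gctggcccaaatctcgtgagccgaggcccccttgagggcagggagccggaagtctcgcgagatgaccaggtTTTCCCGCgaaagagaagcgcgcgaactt
Cks2: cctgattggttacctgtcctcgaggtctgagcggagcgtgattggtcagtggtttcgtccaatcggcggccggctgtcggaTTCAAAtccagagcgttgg
Mki67: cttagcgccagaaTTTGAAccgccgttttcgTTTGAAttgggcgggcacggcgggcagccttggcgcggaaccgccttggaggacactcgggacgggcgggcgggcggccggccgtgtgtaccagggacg

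Such an E2F site lay within the 300 bases around the start, 250 before and 50 after, in 17 of 44 replication genes with a promoter in the table (38.6%), against 286 of 10156 genes tested (2.82%) and 420 of all 27457 promoters (1.53%). It was present in 11 of 23 replication genes that were higher (47.8%) and in 6 of 21 that were not (28.6%). The CHR letters lay in 37 of 57 mitosis genes (64.9%), against 11.5% of genes tested and 18.1% of all promoters. They were as frequent in mitosis genes that were higher (14 of 22, 63.6%) as in those that were not (23 of 35, 65.7%). A match is a string of letters and not a measured site of binding.

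Mcm6, a subunit of the replicative helicase, read 6.0, 6.29 and 6.54 on vehicle and 8.46, 8.32, 7.41 and 8.44 on isoproterenol (change 1.88 ± 0.24, adjusted p = 9.27e-06). Its sister subunit Mcm3 changed by 1.73 ± 0.36 (adjusted p = 0.00143). Gmnn, geminin, which keeps origins from being licensed again, changed by 1.78 ± 0.32 (0.000355), and Hells, a chromatin remodeller of replicating cells, by 1.77 ± 0.29 (0.000135), both from dim vehicle levels. In all 4 genes the groups did not overlap and replicate 3 was the lowest isoproterenol array. Among mitotic genes Ccna2, the cyclin of S phase and G2, read 4.53, 4.73 and 5.03 on vehicle, all dim, and 7.47, 7.12, 5.53 and 7.35 on isoproterenol (change 2.10 ± 0.38, adjusted p = 0.00042). Cks2, a subunit that binds cyclin-dependent kinases, changed by 1.79 ± 0.35 (adjusted p = 0.000967), Cenpk, a centromere protein, by 1.61 ± 0.34 (0.00174) and Plk4, the kinase that duplicates centrioles, by 1.57 ± 0.32 (0.00137). The last of these stood at 7.02, 6.98 and 6.89 on replicates 1, 2 and 4 and at 5.69 on replicate 3. The vehicle means of Cenpk and Plk4 were dim.

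The commonly used markers of division were less stable to leaving out arrays. Mki67, the source of the Ki-67 antigen, read 5.87, 6.59 and 6.35 on vehicle and 8.22, 7.58, 6.86 and 8.37 on isoproterenol (change 1.48 ± 0.39, adjusted p = 0.0103; 0.0634 without vehicle replicate 1). Top2a, topoisomerase II alpha, read 5.88, 6.10 and 6.35 against 7.12, 6.89, 6.48 and 7.15 (change 0.80 ± 0.24, adjusted p = 0.0249). The Top2a call was lost without vehicle replicate 1 (adjusted p = 0.116) or 2 (0.0699), or without isoproterenol replicate 1 (0.0731), 2 (0.06) or 4 (0.0816). Cdk1, the kinase that drives entry into mitosis, read 5.81, 6.16 and 5.63 against 7.26, 7.07, 6.11 and 7.14, where replicate 3 fell inside the vehicle range. Its change of 1.03 ± 0.36 missed the threshold (adjusted p = 0.0526) and passed without replicate 3 (1.29, adjusted p = 0.0112), with array weights (0.00221), with only the 7 arrays fitted (0.0305), with median centring (0.0206), with no normalization (0.00203), with a pseudocount of 64 (0.0217) and with the filter taken over the 24 h arrays (0.0464). Ccnd1, cyclin D1, read 8.49, 8.40 and 8.69 against 9.28, 9.49, 8.41 and 9.15 (change 0.56 ± 0.21, adjusted p = 0.071). Without replicate 3, whose value was that of a vehicle array, it passed (0.78, adjusted p = 0.00333), as it did with array weights (0.00413) and with no normalization (0.0401).

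Upstream of replication, 6 of 25 G1 cyclins, inhibitors and E2F factors were higher and 2 lower. Myc, the growth-promoting transcription factor, read 5.30, 5.65 and 5.50 on vehicle and 7.96, 8.32, 6.17 and 7.99 on isoproterenol (change 2.13 ± 0.34, adjusted p = 0.000118). Ccne2, a cyclin E of the G1 to S step, read 5.61, 5.72 and 5.38 against 6.87, 6.88, 6.64 and 6.95 (change 1.26 ± 0.22, adjusted p = 0.000337). Replicate 3 matched its group for Ccne2 and stood far below it for Myc. Rbl1, the pocket protein p107 that E2F itself induces, changed by 1.78 ± 0.34 (adjusted p = 0.000741). Cdkn1c, the cell cycle inhibitor p57, fell by 0.83 ± 0.19 (adjusted p = 0.00403; 0.0513 with only the 7 arrays fitted). The list's count of higher genes was 9 without replicate 3 and 3 without vehicle replicate 3 or without isoproterenol replicate 1, 2 or 4.

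**Figure D3:**
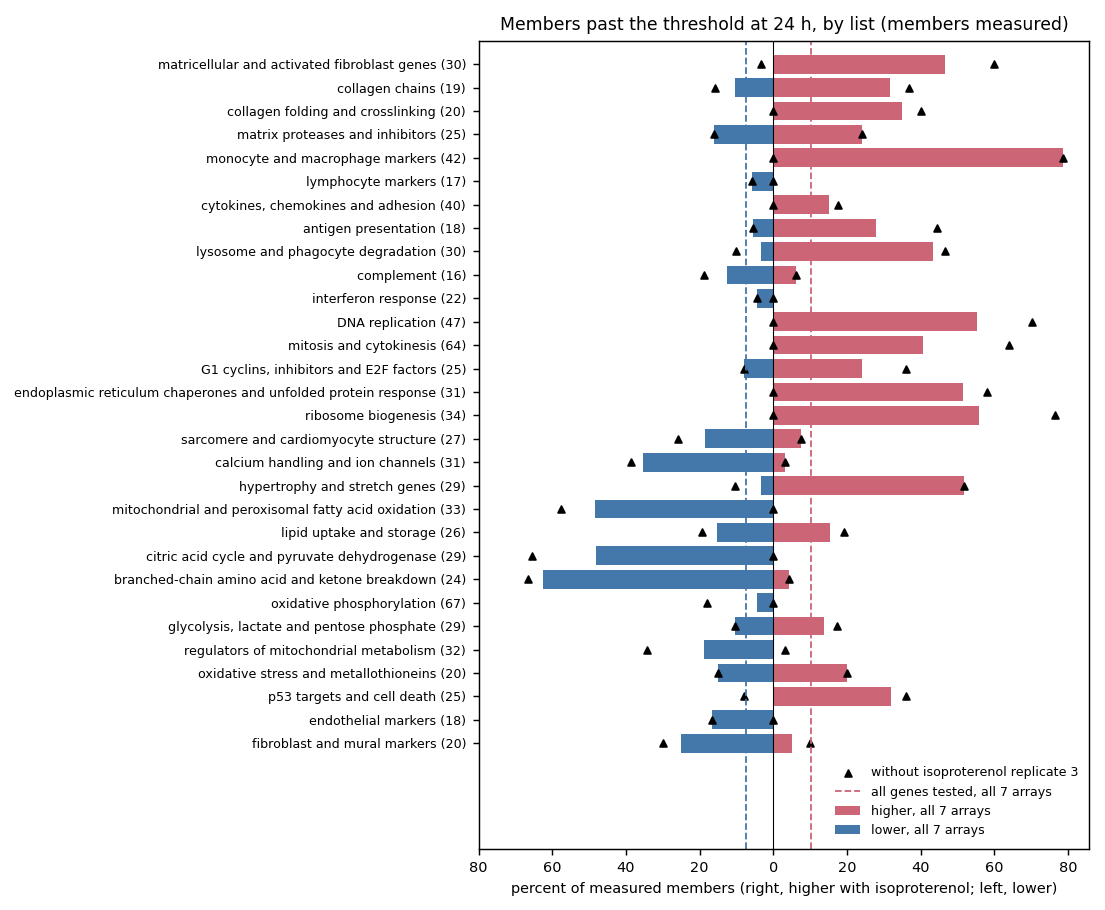
Percentage of the measured members of each list of at least 15 genes that passed the threshold, higher to the right and lower to the left, with triangles for the fit without isoproterenol replicate 3 and dashed lines for all genes tested (10.2% and 7.36%). Macrophage markers, with 33 of 42 higher, extend farthest to the right and branched-chain amino acid genes, with 15 of 24 lower, farthest to the left.

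The machinery that makes ribosomes was among the most uniform groups. All 34 ribosome biogenesis genes had a positive change, 19 passed, none was lower, and the median was 0.67. Nhp2, a protein of the particles that modify ribosomal RNA, read 7.43, 7.08 and 7.51 on vehicle and 9.31, 9.90, 8.60 and 9.03 on isoproterenol (change 1.87 ± 0.20, adjusted p = 8.81e-07). Fbl, fibrillarin, the methyltransferase of the nucleolus, read 8.38, 8.04 and 8.24 against 10.13, 10.43, 8.93 and 10.11 (change 1.68 ± 0.21, adjusted p = 5.9e-06). Rrp12, an export factor of the small subunit, changed by 1.99 ± 0.32 (adjusted p = 0.000125) on all 3 of its probe sets, and Ebna1bp2, of the large subunit, by 1.37 ± 0.20 (5.44e-05). The groups did not overlap for any of the 4, and replicate 3 was the lowest isoproterenol array for each. The count ran from 14 to 26 over single arrays left out.

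Chaperones of the endoplasmic reticulum, where secreted and membrane proteins fold, were read together with genes of the unfolded protein response. Of 31 measured, 16 were higher and 0 lower, with a median of 0.49. The 15 that did not pass included Atf4, Ddit3, Trib3, Ppp1r15a, Eif2ak3, Herpud1 and Xbp1. Under unfolded protein stress, chaperone genes are induced through the ER stress element, CCAAT followed by 9 bases and CCACG. The promoters of Creld2 and Hspa5 are shown because both hold it (capitals, either strand). They are the bases before the RefSeq start in GRCr8, at chr7:121789224-121789383 and chr3:38452916-38453015, both on the plus strand.
Creld2: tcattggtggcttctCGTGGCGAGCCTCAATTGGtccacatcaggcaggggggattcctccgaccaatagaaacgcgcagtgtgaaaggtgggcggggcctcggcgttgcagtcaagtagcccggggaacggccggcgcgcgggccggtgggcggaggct
Hspa5: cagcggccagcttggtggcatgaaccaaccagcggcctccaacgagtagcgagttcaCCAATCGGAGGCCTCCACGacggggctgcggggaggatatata

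The element lay in the promoter window of 7 of 24 genes of this list (29.2%), against 15 of 10156 genes tested (0.148%) and 21 of all 27457 promoters (0.0765%). Creld2, Calr, Dnajc3, Hsp90b1 and Hspa5 were higher, and Xbp1 and Canx did not pass. Creld2, a chaperone-like protein of the secretory pathway, read 7.11, 7.13 and 7.17 on vehicle and 8.98, 9.38, 7.40 and 9.13 on isoproterenol (change 1.59 ± 0.30, adjusted p = 0.000654), so replicate 3 lay just above vehicle. Hspa5, the chief chaperone BiP, read 11.67, 11.91 and 12.04 against 12.34, 12.77, 12.04 and 12.76, where replicate 3 overlapped vehicle (change 0.60 ± 0.19, adjusted p = 0.0358). The Hspa5 call was lost under 10 alternatives, with an adjusted p of 0.159 without vehicle replicate 1, 0.0798 without vehicle replicate 2, 0.0537 without vehicle replicate 3, 0.144 without isoproterenol replicate 2, 0.124 without isoproterenol replicate 4 and 0.0916 with median centring. Larger changes stood in Sec61b, a subunit of the translocation channel (1.86 ± 0.32, adjusted p = 0.000288), Sdf2l1, a partner of BiP (1.76 ± 0.25, 2.12e-05), and Edem1, which sorts misfolded glycoproteins for degradation (1.22 ± 0.25, 0.00126; all 3 probe sets).

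Genes linked to stretch and hypertrophy were higher in 15 of 29 cases and lower in 1, and the cells they came from were not resolved. Nppa, atrial natriuretic peptide, read 10.11, 10.90 and 9.13 on vehicle and 12.80, 13.31, 12.15 and 12.93 on isoproterenol (change 2.75 ± 0.51, adjusted p = 0.000569). The vehicle arrays were spread widely, and all isoproterenol arrays were above them. Nppa is abundant in atria, and 3 atrial genes were read beside it, chosen after their values were seen. Myl7, the atrial light chain, read 5.86, 10.41 and 5.24 on vehicle and 7.26, 5.0, 7.27 and 5.95 on isoproterenol. Vehicle replicate 2 was likewise the highest array for Myl4 (9.51) and Sln (8.30), and it had the highest vehicle level of Nppa. None of the 3 passed (changes -0.80, -0.52 and -0.34), and the part of atrial tissue in the Nppa result was not tested. Tubb6, a beta-tubulin of stressed muscle, read 6.44, 6.85 and 6.88 against 10.27, 10.52, 8.38 and 10.12 (change 3.10 ± 0.41, adjusted p = 1.15e-05). Ankrd23, a titin-binding protein of the stretch sensor, changed by 1.88 ± 0.35 (adjusted p = 0.000526) and Hspb1, a small heat shock protein, by 1.58 ± 0.25 (9.04e-05).

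The classic fetal genes were less clear. Nppb, brain natriuretic peptide, read 11.14, 10.28 and 10.69 on vehicle and 11.57, 12.12, 10.86 and 11.26 on isoproterenol, with overlapping groups (change 0.75 ± 0.24, adjusted p = 0.0339). Its call was lost without vehicle replicate 2 (adjusted p = 0.22) or 3 (0.0946), without isoproterenol replicate 1 (0.0813) or 2 (0.192), in a fit of only the 7 arrays (0.0941), with median centring (0.0966), with the replicate block (0.053) and with no intensity trend (0.0577). Acta1, skeletal alpha-actin, read 13.02, 12.83 and 12.99 against 13.18, 13.25, 13.23 and 13.22 (adjusted p = 0.413), and Ankrd1 read 12.56, 12.61 and 12.66 against 12.91, 12.85, 12.98 and 12.88 (adjusted p = 0.0717; 0.04 with array weights), while another of its 2 probe sets passed. Both genes lay apart by group and near the top of the intensity scale. Myh7, the slow myosin heavy chain, read 11.83, 12.26 and 12.38 against 13.22, 12.29, 12.56 and 12.98 (change 0.60 ± 0.30, adjusted p = 0.21; 0.0386 with array weights and 0.0241 with no normalization), and another of its 2 probe sets passed. Myh6, the fast chain, had a difference of -0.01 ± 0.07 (adjusted p = 0.966).

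Of 27 structural genes of the sarcomere, 2 were higher and 5 lower (Mybpc3, Ldb3, Myom1, Jph2 and Trim63, from -0.46 to -0.57), with a median of -0.14. Ldb3 passed on 1 of 6 probe sets. The lower share was above the 7.36% of all genes, and the higher share was below their 10.2%. No lower call was left without vehicle replicate 3 or without isoproterenol replicate 2, and with no normalization the values of Ldb3, Myom1, Jph2 and Trim63 were above 0. The summed intensity of the list ran from 141547 to 166216 on isoproterenol and from 163579 to 173054 on vehicle, so the arrays overlapped. Quantile normalization gives every array the same set of values, and several of these genes lie near its top, so the overlap says little. With median centring the median of the list was -0.37, with 0 higher and 2 lower. Among calcium handling genes and ion channels, 11 of 31 were lower and 1 higher, with a median of -0.38. Kcnk2, the stretch-gated potassium channel TREK-1, read 8.41, 8.24 and 8.62 on vehicle and 6.76, 5.82, 7.55 and 6.91 on isoproterenol (change -1.66 ± 0.32, adjusted p = 0.000707). Kcnip2, the partner of the transient outward channel, fell by 1.10 ± 0.21 (adjusted p = 0.000673), Kcnj11, the pore of the ATP-sensitive potassium channel, by 1.09 ± 0.23 (0.0017), and Hrc, the histidine-rich calcium protein of the sarcoplasmic reticulum, by 1.12 ± 0.22 (0.00092). In each of the 4 the groups did not overlap and replicate 3 was nearest to vehicle. The central calcium pump Atp2a2 read 13.43, 13.48 and 13.46 against 13.40, 13.37, 13.43 and 13.43 (change -0.05 ± 0.07, adjusted p = 0.709; -0.49 and 0.0316 with median centring). Its inhibitor Pln had a difference of -0.20 ± 0.08 (adjusted p = 0.108; 0.0464 with median centring and 0.0441 with array weights), and the receptor Adrb1 by -0.22 ± 0.23 (adjusted p = 0.604). Without normalization 0 of the channel list were lower, and 7 were lower without vehicle replicate 3 or isoproterenol replicate 2.

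Falls were most frequent in the lists of mitochondrial fuel oxidation. Of 33 genes of mitochondrial and peroxisomal fatty acid oxidation, 16 were lower and 0 higher, and all 33 changes were negative with a median of -0.60. Of 29 genes of the citric acid cycle and pyruvate dehydrogenase, 14 were lower and 0 higher (median -0.38). Of 24 genes of branched-chain amino acid and ketone breakdown, 15 were lower and 1 higher (median -0.71). The background of lower genes was 7.36%. These are falls relative to the other transcripts of the same array: without normalization 0 genes of these 3 lists were lower, and their medians were -0.02, 0.11 and -0.11 beside 0.47 for all probe sets. After median centring 6, 5 and 7 were lower, and the medians of -0.52, -0.38 and -0.60 stayed below that of all probe sets (-0.03).

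**Figure D4:**
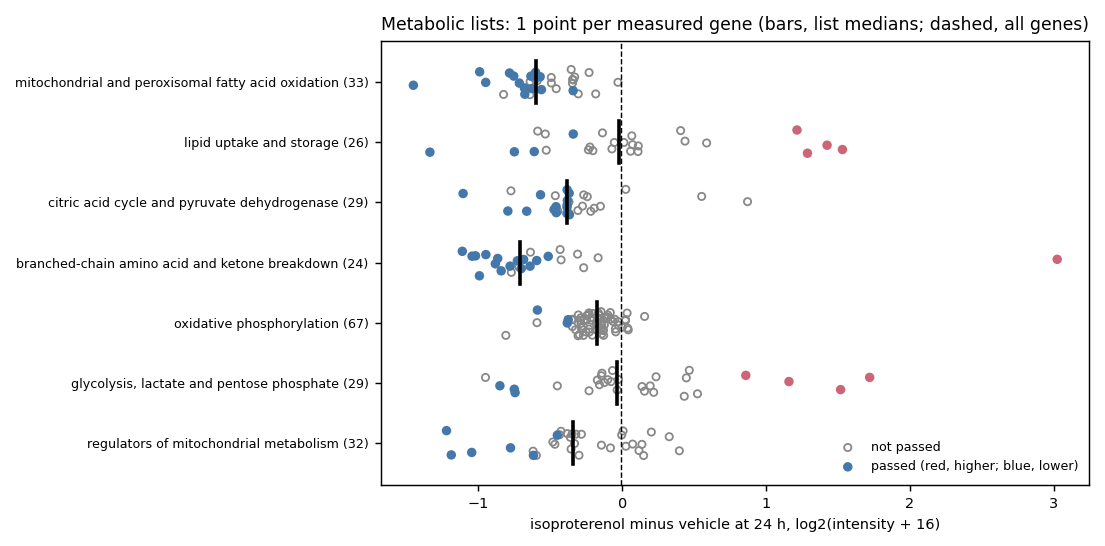
Change (isoproterenol minus vehicle, log2) of every measured gene in 7 metabolic lists, with filled points for genes that passed, bars for list medians and a dashed line for the median of all genes. Fatty acid oxidation lies wholly left of zero with a median of -0.60, oxidative phosphorylation clusters near its median of -0.17, and Bcat1 stands alone to the right at 3.02.

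Cpt1b, which admits fatty acids to cardiac mitochondria, read 11.90, 11.85 and 12.27 on vehicle and 11.12, 10.86, 11.79 and 11.24 on isoproterenol (change -0.75 ± 0.18, adjusted p = 0.00408). Cpt2, its partner on the inner membrane, read 10.94, 10.83 and 11.24 against 10.05, 9.58, 10.60 and 9.99 (change -0.95 ± 0.20, adjusted p = 0.0018). Replicate 3 stood just below the lowest vehicle array in both, and replicate 2 was the lowest. Acsl6, an acyl-CoA synthetase, changed most in the list and read 7.97, 8.04 and 8.30 against 6.96, 6.15, 6.96 and 6.54 (change -1.45 ± 0.27, adjusted p = 0.000483). Etfdh, which passes electrons from fatty acid oxidation to ubiquinone, fell by 0.99 ± 0.20 (adjusted p = 0.00111). Hadha, of the trifunctional protein, read 11.84, 11.39 and 11.96 against 11.23, 11.15, 11.73 and 11.58, with overlap (adjusted p = 0.222; 0.0459 with array weights). The lower count was between 5 and 8 when any array but isoproterenol replicate 3 was left out, with 5 without vehicle replicate 1 or isoproterenol replicate 2, and 19 without isoproterenol replicate 3.

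At the entry to the citric acid cycle Pdp2, the phosphatase that activates pyruvate dehydrogenase, read 8.42, 8.07 and 8.47 on vehicle and 7.04, 7.21, 7.45 and 7.16 on isoproterenol (change -1.11 ± 0.27, adjusted p = 0.0052; both probe sets). Pdk2, a kinase that inhibits the same complex, fell by 0.80 ± 0.18 (adjusted p = 0.00313). The kinase Pdk4 went the other way without passing: it read 9.88, 10.40 and 9.24 against 10.21, 10.66, 11.31 and 10.66 (change 0.87 ± 0.30, adjusted p = 0.0546). It passed without vehicle replicate 2 (adjusted p = 0.0282) or isoproterenol replicate 1 (0.0352), with a pseudocount of 64 (0.049), with the filter taken over the 24 h arrays (0.0494) and with no normalization (0.0103). Replicate 3 was the highest array for Pdk4. The count of lower citric acid cycle genes was between 3 and 5 with any array but isoproterenol replicate 3 left out, where it was 19.

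In branched-chain amino acid breakdown, Bcat1 and the oxidative steps moved apart. Bcat1, the cytosolic aminotransferase, read 5.48, 4.69 and 4.50 on vehicle, a dim mean, and 8.23, 8.20, 7.13 and 8.09 on isoproterenol (change 3.02 ± 0.41, adjusted p = 1.49e-05; both probe sets). Mccc1, a subunit of the carboxylase of leucine breakdown, read 9.72, 9.34 and 9.63 against 8.47, 7.92, 9.23 and 8.19 (change -1.11 ± 0.24, adjusted p = 0.00208). Pcca, the propionyl-CoA carboxylase subunit, fell by 1.02 ± 0.21 (adjusted p = 0.00119), and Ppm1k, the phosphatase that activates the branched-chain dehydrogenase, by 0.99 ± 0.25 (0.0066; 1 of 3 probe sets). Bdh1, of ketone use, fell by 1.04 ± 0.22 (adjusted p = 0.00206). When only the 7 arrays were fitted, the fall printed for Bdh1 was 0.27 (adjusted p = 0.343). Each fit picks anew which probe set stands for a gene, and Bdh1 has 2. The values may therefore come from different probe sets. The count of lower genes was 6 without isoproterenol replicate 2, 7 without vehicle replicate 2 or 3, 8 without vehicle replicate 1 and 9 without isoproterenol replicate 4.

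Few genes of the respiratory chain passed. Of 67 oxidative phosphorylation genes, 3 were lower and 0 higher, with a median of -0.17 and 61 negative changes. The lower share was 4.48% against 7.36% of all genes, and without isoproterenol replicate 3 it was 17.9% (12 genes) against 10.5%, so its place relative to the background turned with that array. The 3 are complex I subunits: Ndufs1 (-0.59 ± 0.16, adjusted p = 0.0136), Ndufs3 (-0.38 ± 0.12, 0.0392) and Ndufa9 (-0.38 ± 0.13, 0.0432), the last pair of which had values above 0 with no normalization. None of the 3 passed without isoproterenol replicate 2 (adjusted p = 0.0903, 0.133 and 0.131). Whether this list differs from the fatty acid oxidation list was not tested.

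Of 29 genes of glycolysis, lactate transport and the pentose phosphate path, 4 were higher (13.8%) and 3 lower (10.3%), near the shares of all genes (10.2% and 7.36%). Pfkp, the platelet-type phosphofructokinase, read 8.30, 8.69 and 8.33 on vehicle and 10.09, 10.57, 9.05 and 10.12 on isoproterenol (change 1.52 ± 0.31, adjusted p = 0.00137). Pfkm, the muscle form of the same enzyme, read 11.97, 11.76 and 12.01 against 11.09, 10.95, 11.54 and 11.06 (change -0.75 ± 0.16, adjusted p = 0.0015; 1 of 3 probe sets). Every isoproterenol array was above vehicle for Pfkp and below it for Pfkm. Slc16a3, a lactate exporter, changed by 1.72 ± 0.44 from a dim level (adjusted p = 0.00833; 0.0648 without vehicle replicate 3), and Pgd, of the pentose phosphate path, by 1.16 ± 0.26 (0.00324) with replicate 3 inside the vehicle range. Slc2a4, the insulin-responsive glucose carrier, changed by -0.85 ± 0.24 (adjusted p = 0.0163; 0.104 without vehicle replicate 3 and 0.109 without isoproterenol replicate 2). In lipid handling 4 of 26 genes were higher and 4 lower: Fabp5, the fatty acid binding protein of macrophages and endothelium, changed by 1.42 ± 0.18 (adjusted p = 9.07e-06), and Plin5, the lipid droplet coat of oxidative muscle, by -1.34 ± 0.31 (0.00347). The lipid counts dropped to 2 higher (without vehicle replicate 1 or isoproterenol replicate 2) and to 1 lower (without vehicle replicate 3), and the glycolysis count to 1 lower without vehicle replicate 3 or isoproterenol replicate 2.

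Of 32 regulators of mitochondrial metabolism, 6 were lower and 0 higher, and 11 were lower without replicate 3 but 3 without vehicle replicate 3 or isoproterenol replicate 2. Rxrg, a nuclear receptor partner, read 10.15, 9.88 and 9.94 on vehicle and 8.66, 8.38, 9.37 and 8.67 on isoproterenol (change -1.22 ± 0.23, adjusted p = 0.000708). Perm1, a muscle regulator of oxidative genes, fell by 1.19 ± 0.31 (adjusted p = 0.0102; 0.0544 without vehicle replicate 3 and 0.0743 without isoproterenol replicate 2). Nr1d1, the clock repressor REV-ERB alpha, read 9.89, 9.60 and 9.83 against 8.72, 8.77, 8.75 and 8.66 (change -1.05 ± 0.20, adjusted p = 0.000695), and here replicate 3 lay with its group. Ppargc1a, the coactivator PGC-1 alpha, read 9.35, 9.24 and 9.26 against 8.56, 8.01, 9.42 and 8.66. Replicate 3 was above every vehicle array, and the change of -0.62 ± 0.25 missed the threshold (adjusted p = 0.0981) but passed without it (-0.87, adjusted p = 0.00758) and with array weights (0.0109). Ucp3, a mitochondrial carrier induced by fatty acids, read 6.45, 5.90 and 6.38 against 6.25, 5.83, 6.32 and 6.0 (adjusted p = 0.809).

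Calls among cell death genes were all rises, while those among oxidative stress genes went both ways. Of 25 p53 targets and death genes, 8 were higher and 0 lower, with a median of 0.36. The higher share was above the 10.2% of all genes. Tnfrsf12a, the receptor of TWEAK, read 7.02, 6.54 and 6.58 on vehicle and 9.62, 10.63, 7.81 and 9.24 on isoproterenol (change 2.61 ± 0.41, adjusted p = 8.47e-05). Bcl2a1, a survival protein of leukocytes, changed by 2.85 ± 0.45 from a dim level (adjusted p = 0.000101), and Gadd45g, of growth arrest and DNA damage, by 1.42 ± 0.25 (0.000325). The count was 4 without isoproterenol replicate 2 and 5 without vehicle replicate 1 or 3. Of 20 oxidative stress genes, 4 were higher and 3 lower, but 0 were higher without vehicle replicate 1 or isoproterenol replicate 2 and 1 without vehicle replicate 3 or isoproterenol replicate 4. Hmox1, heme oxygenase, changed by 1.49 ± 0.39 (adjusted p = 0.00953) with replicate 3 at 6.87 inside the vehicle range of 6.40 to 7.04, and lost its call without vehicle replicate 1 (0.0515) or isoproterenol replicate 2 (0.0676). Sod3, the extracellular superoxide dismutase, fell by 1.03 ± 0.23 (adjusted p = 0.00299).

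Most called markers of endothelium and of fibroblasts and mural cells were lower. Of 18 endothelial markers, 3 were lower and 0 higher, with a summed intensity of 7514 to 9398 on isoproterenol and 10037 to 10752 on vehicle, so the arrays did not overlap. Apln, the endothelial peptide apelin, read 8.82, 8.81 and 9.01 on vehicle and 7.32, 6.57, 7.50 and 6.48 on isoproterenol (change -1.91 ± 0.27, adjusted p = 2.53e-05; both probe sets). Kdr, the receptor VEGFR2, fell by 0.92 ± 0.19 (adjusted p = 0.00138). Of 20 fibroblast and mural markers, 1 was higher and 5 were lower, among them Dcn, the fibroblast proteoglycan decorin (-0.68 ± 0.14, adjusted p = 0.00141). Lower fibroblast markers numbered 2 when vehicle replicate 2 or 3 was left out, or any isoproterenol array but replicate 3, and their summed intensity overlapped (26401 to 33363 against 31356 to 36695). With no normalization Kdr and Dcn did not pass (adjusted p = 0.579 and 0.712). The endothelial list then had 1 lower and 0 higher, and the fibroblast and mural list 0 lower and 3 higher. Dbh, of noradrenaline synthesis in nerve endings, changed by 0.98 ± 0.22 (adjusted p = 0.00322). Other large falls with groups apart were Slc22a3, an organic cation transporter (-2.22 ± 0.36, adjusted p = 0.000149), Slc41a3, a magnesium transporter (-1.93 ± 0.24, 6.92e-06), and Klhl33 (-1.89 ± 0.31, 0.000162).

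The remaining genes among the 15 largest rises and 15 largest falls kept their calls with any 1 array left out. Cd300c2, a myeloid receptor, read 6.82, 6.55 and 6.52 on vehicle and 9.87, 10.87, 8.64 and 9.98 on isoproterenol (change 3.21 ± 0.44, adjusted p = 2e-05), and Cotl1, an actin-binding protein of leukocytes, changed by 2.92 ± 0.44 (5.57e-05). Abca8a, a lipid transporter, read 10.30, 10.56 and 10.53 against 9.11, 7.59, 9.69 and 8.60 (change -1.72 ± 0.32, adjusted p = 0.000614). For both genes with printed arrays replicate 3 was nearest to vehicle and the groups did not overlap. Smaller falls stood in Cda, cytidine deaminase (-1.70 ± 0.39), Kcna2, a potassium channel (-1.66 ± 0.31; 1 of 2 probe sets), Cntnap2 (-1.64 ± 0.39; 2 of 3), Tmod4, a capping protein of thin filaments (-1.63 ± 0.41), Pm20d2 (-1.62 ± 0.25), Prodh, proline dehydrogenase (-1.60 ± 0.36), and Pllp (-1.59 ± 0.33). With no normalization Abca8a, Pm20d2, Prodh and Tmod4 did not pass (adjusted p = 0.0581, 0.0666, 0.112 and 0.129). Nor did many falls named above, among them Kcnk2 (adjusted p = 0.0735), Plin5 (0.238), Rxrg (0.291), Serping1 (0.406), Nr1d1 (0.443) and Sod3 (0.501). Only 17 probe sets in all were lower under that setting. A further 43 genes named by the list rule, 18 higher and 25 lower with changes from -1.02 to 2.68, are given only as counts, and 38 of them lost their call in at least 1 fit that left out an array.

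Set against the neighbouring times of the series, which had 4 isoproterenol and 3 vehicle arrays at 3 h and 5 and 3 at 72 h, the isoproterenol effect at 24 h differed from that at 3 h for 1678 probe sets (7.12%) and from that at 72 h for 520 (2.21%). The first count was 1079 without vehicle replicate 2, 1071 without vehicle replicate 3, 1103 without isoproterenol replicate 2 and 2566 without isoproterenol replicate 3. The second was 230, 313 and 309 without the first 3 of these arrays. The labels give the last time as 72 h and the design text as 48 h. Spp1 had an effect of -0.06 at 3 h, 7.65 at 24 h and 3.21 at 72 h, and both differences passed (7.71 ± 0.81, adjusted p = 1.85e-07, and -4.44 ± 0.79, adjusted p = 0.00207). Mcm6 went from 0.07 to 1.88 between 3 and 24 h (difference 1.81 ± 0.35, adjusted p = 0.00145), Itgb2 from 0.28 to 2.45 (2.16 ± 0.44, 0.00274) and Top2a from -0.53 to 0.80 (1.33 ± 0.34, 0.0166). Col1a1 went from -1.01 at 3 h to 0.69 at 24 h (difference 1.70 ± 0.49, adjusted p = 0.0315) and stood at 1.82 at 72 h. Timp1 and Ccl2 were already at 4.26 and 3.49 at 3 h, and their differences to 24 h did not pass (-0.02 ± 0.76, adjusted p = 0.991, and -0.24 ± 0.61, adjusted p = 0.868). The difference of Postn missed the threshold (2.50 ± 0.80, adjusted p = 0.0529), as did that of Cpt1b (-0.62 ± 0.25, adjusted p = 0.129).

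**Figure D5:**
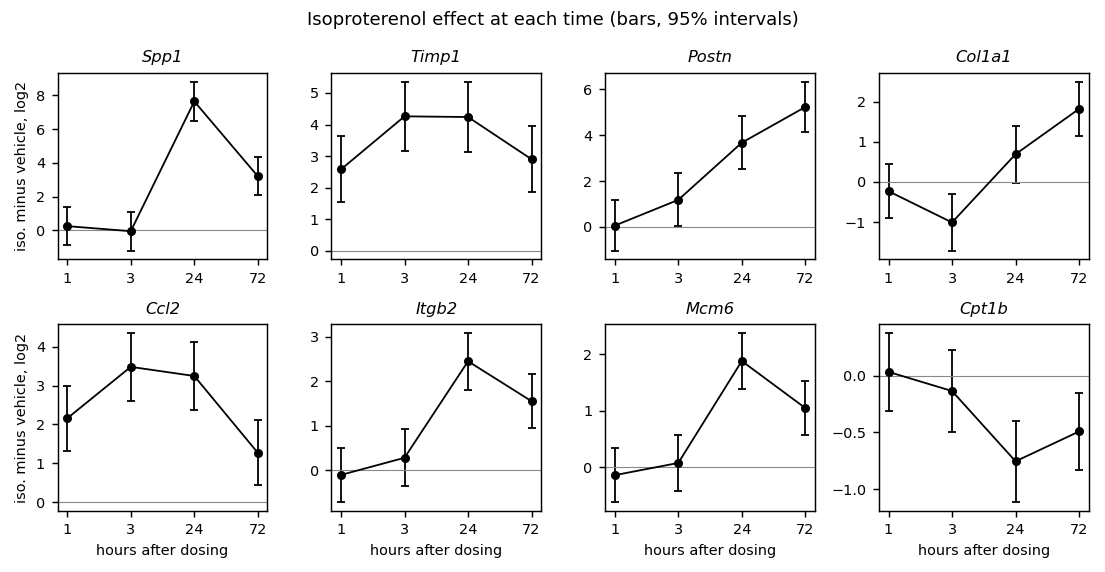
Isoproterenol minus vehicle (log2, y axes on their own scales) of 8 genes at the 4 labelled times, drawn at equal steps, with 95% intervals from the fit. Spp1 peaks at 24 h at 7.65, Timp1 is already at 4.26 at 3 h, Col1a1 stands at 1.82 at 72 h, and Cpt1b is lowest at 24 h at -0.75. The difference between 72 and 24 h did not pass for Col1a1 (1.13 ± 0.48, adjusted p = 0.254) or Cpt1b (0.26 ± 0.24, adjusted p = 0.688).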

How the data were processed

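RNA of rat hearts was read on 1-colour RAT230_2 arrays. The deposited intensity values are linear and positive or 0, 1 per probe set and array; no source used here names how the authors summarised the probes. Per the labels' protocols, tissue was kept in RNAlater, RNA was extracted with RNeasy kits and biotin-labelled cRNA was hybridised. Groups come from the titles.

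Of 31099 probe sets, 57 controls were left out. Values were taken as log2(intensity + 16), quantile normalized over all 30 arrays, and kept where at least 3 arrays passed the 40th percentile (log2 5.31, intensity 23.7). limma 3.58.1 (R 4.3.3) fitted 8 group means (lmFit, eBayes with trend, 22 residual degrees of freedom), so all arrays share 1 estimate of the spread, and p-values were adjusted by Benjamini-Hochberg over 23582 probe sets with a threshold of 0.05. The fit was tested on simulated data. With 4 against 3 arrays there are 35 splits, which sets the smallest exact p. The number of arrays limits the precision.

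The platform table gives 20826 probe sets 1 gene, 436 several and 9780 none; only the first were named, with 20764 symbols updated by gene number and 2 by accession, and 66 kept as listed. A gene stands by its tested probe set with the highest mean over all arrays of the fit, picked anew in each alternative fit. The 36 lists hold 1069 genes, of which 915 were measured. Genes named are the 15 largest rises and falls with groups apart, the 4 largest called changes in each direction of each list, and a set of always reported genes. Of 179 such genes 136 are described and 43 are given as counts. Which of them to describe was chosen after their values were seen and leans to the steadier calls: 38 of the 43 lost their call when some array was left out. The comparison and lists were chosen with earlier results of these data known. Promoters are RefSeq's, build GRCr8, matched by symbol for 10156 genes tested. Alternatives were pseudocount, normalization, filter, samples in the fit, array weights, replicate block, variance settings, probe set choice and leaving out each array. A filter on values before normalization was added after seeing the data.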

Additional observations from a re-analysis of the deposited data

Results flagged for a closer look

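Isoproterenol replicate 3 lay apart from the other 3 arrays of its group for 13 of the 179 genes named by rule. Its gap to the nearest neighbour, as a share of the group's range, was above Dixon's 95% critical value for 4 samples. Chance alone gives about 1 such case in 20 groups, and the genes share arrays. That share covers any array of a group on either side, while all 13 cases were replicate 3. The share for this array on the side of vehicle was not worked out, so the count was not tested against chance. Among proliferation and growth genes it read 7.41 for Mcm6 (nearest other array 8.32), 6.11 for Cdk1 (7.07), 6.25 for Gmnn (6.83), 5.69 for Plk4 (6.89) and 6.17 for Myc (7.96). Among matrix genes it read 7.65 for Col8a1 (8.39), 7.38 for Col18a1 (8.40) and 8.13 for Plod2 (9.15). It read 7.16 for Clec4a3 (9.08) and 7.13 for Bcat1 (8.09), and likewise 7.95 for Acad10 (7.40), 6.36 for Bid (6.84) and 10.53 for Timp3 (9.82). In each case the array lay on the side of vehicle.

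The effect of isoproterenol differed between times for 5 genes reported with a test of the difference. Between 3 and 24 h it rose by 7.71 for Spp1 (adjusted p = 1.85e-07), 1.81 for Mcm6 (0.00145), 2.16 for Itgb2 (0.00274), 1.33 for Top2a (0.0166) and 1.70 for Col1a1 (0.0315), on the log2 scale. Between 24 and 72 h the Spp1 effect changed by -4.44 (adjusted p = 0.00207), and no other gene so tested passed. Neither difference passed for Timp1, Postn, Hspa5, Il1b, Ccl2, Cpt1b, Ucp3 or Nppb, which were tested in the same way.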

How the results depend on the processing

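Leaving out 1 array at a time gave 1604 to 4428 called probe sets, 1027 to 2368 higher and 577 to 2060 lower, 1071 to 2566 for the difference from 3 h and 230 to 775 for that from 72 h. Lists ran from 7 to 14 for lysosome, 17 to 41 for mitosis, 7 to 12 for channels, 5 to 19 for fatty acid oxidation, 3 to 19 for the citric acid cycle and 6 to 16 for branched-chain amino acids. With array weights 5289 probe sets were called (2767 higher, 2522 lower), 2995 differed from 3 h, 2036 from 72 h, and 48 mitosis genes were higher. With no normalization 3078 were higher and 17 lower, 54 differed from 72 h, 22 matricellular and 47 mitosis genes were higher, 0 channel, fatty acid oxidation, citric acid cycle or branched-chain genes were lower, and the falls of 10 genes changed sign: Ndufa9 (0.13), Ndufs3 (0.18), Jph2 (0.0246), Lamp2 (0.0807), Ldb3 (0.0611), Lipe (0.0269), Myom1 (0.045), Nqo1 (0.0076), Timp3 (0.0559) and Trim63 (0.0436). With median centring 778 were lower, 345 differed from 72 h, and 6 fatty acid oxidation, 5 citric acid cycle and 7 branched-chain genes were lower. With only the 7 arrays fitted 897 were lower, with 8 lysosome genes higher and 4 citric acid cycle genes lower. With no filter 10 fatty acid oxidation and 7 citric acid cycle genes were lower, and with no intensity trend 8 and 5. Replicate numbers did not pair the arrays (correlations of 0.0128, -0.0286 and 0.0573 for numbers 1 to 3). The fit with a replicate block called 2649 probe sets and 8 lower citric acid cycle genes. The filter on values before normalization, chosen after seeing the data, called 3169. Over the 179 genes named by rule, leaving out arrays kept 1054 outcomes, with 194 calls lost and 5 gained. Other settings kept 2118, with 174 lost, 23 gained and 10 reversed. Causes were not tested.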
